A study of Homo sapiens with 6 samples.

Results

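Narrow peaks of high fold are sites where the acetylation of lysine 27 of histone H3 (H3K27ac) formed a short, tall island in CCRF-CEM cells, a long-established line of human leukemic T lymphoblasts. They were chosen by 2 values that the authors deposited for DMSO-treated parental cells: a width below 600 bp and a fold of at least 4 over the local background. These limits took 1766 of the 171713 peaks on chromosomes 1 to 22 and X, or 1.03%. The study profiled the parental line (wild-type) and an SLFN11 gene knockout. Each was given DMSO, the vehicle, or camptothecin at 100 nM for 2 h or 4 h; 1 protocol text names 4 h alone. Camptothecin traps topoisomerase 1 on DNA, and SLFN11 is a Schlafen protein that is known for making cells more sensitive to replication stress. Each of the 6 groups was 1 library, so no value below has a spread between replicates and no test between groups was possible. Whether the knockout cells came from 1 clone is not given in the sources used here. All groups were grown in the same medium, and all libraries used 1 H3K27ac antibody.

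H3K27ac marks nucleosomes at active promoters and enhancers. It usually spreads over several nucleosomes on both sides of an open site, which gives wide peaks. A short island can be a small element with few acetylated nucleosomes, and it can also be a place where reads of many similar sequences are piled up by the aligner. Positions are given on hg19, 1-based. No genome, gene annotation or exclusion list of that build was used here, so no gene is named and no sequence is printed.

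The libraries differed in depth, for which the background pileup in fragments per base stands here. It was 0.603 in parental DMSO, 0.506 and 0.570 in parental cells at 2 h and 4 h, and 0.699, 0.715 and 0.168 in knockout DMSO, 2 h and 4 h. The peak caller adds 1 to pileup and background before it divides them, so a fold of 4 over these backgrounds stands for a pileup of at least 5.41 fragments in parental DMSO and 3.67 in knockout 4 h. The median member had a pileup of at least 6.52 fragments. A count of 7 fragments has an exact Poisson 95% interval of 2.81 to 14.4, for counting error only, so a 1.5-fold difference at 1 such site lies within it. A ratio between lists carries the counting error of both, so its interval is wider and was not computed.

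The members had a median fold of 4.69, with quartiles of 4.24 and 5.58 and a largest value of 15.02. Most were close to the limit: 1083 of them (61.3%) had a fold under 5, and 44 (2.49%) had 10 or more. Their median −log10 p was 6.60, and 731 (41.4%) had a −log10 q of at least 5. Widths ran from 202 to 599 bp with a median of 396.5 bp. The commonest widths were 320 to 339 bp, with 194 members, and 340 to 359 bp, with 168, against 69 from 300 to 319 bp. Narrow peaks of any fold also had a local maximum at 320 to 339 bp, with 4380 peaks against 3701 and 3288 in the classes on either side. Among all peaks of the list the shortest were the commonest, with 51124 peaks from 200 to 219 bp, but only 52 of these reached a fold of 4. Fold and width chose the members, so these values are a description. Of the 13242 peaks that reached a fold of 4, the members were 13.3 in 100. The other 11476 were 600 bp or wider, with a median of 1285 bp, and serve below as the wider high-fold peaks. A second comparison set has the same width limit and a fold from 3 to under 4, with 5707 peaks.

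**Figure D1:**
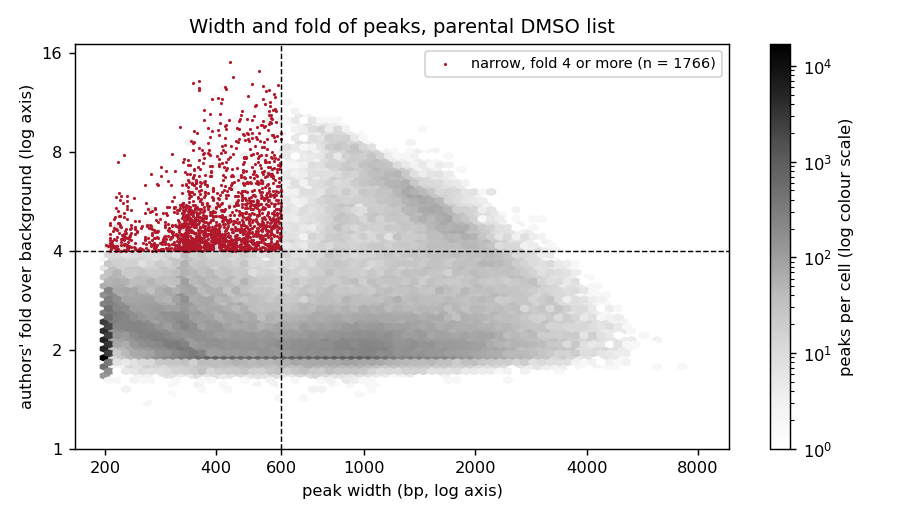
Width in bp (log axis) against the authors' fold (log axis) for all peaks of the parental DMSO list, as counts per cell in grey, with the 1766 members in red and the limits of 600 bp and fold 4 dashed. The members are densest just above the fold limit and at 320 to 359 bp, and the cloud of peaks goes on without a gap beyond 600 bp.

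Just inside the fold limit lay members at chr2:111207601-111207937, at chr3:73564404-73564733 and at chrX:90533060-90533391, with a fold of 4.0003, 4.0008 and 4.0011. Just outside lay peaks at chr19:51580942-51581173 (3.9992), chr17:62965696-62966284 (3.9988) and chr1:238078621-238079058 (3.9987). At the width limit, members of 599 bp lay at chr13:50822199-50822797, chr13:60841729-60842327 and at chr11:108108566-108109164. Peaks of 601 bp at chr17:38974949-38975549, chr11:86013199-86013799 and chr12:47754994-47755594 were left out with a fold of 11.3, 9.95 and 7.77. Tall islands thus occurred on both sides of the width limit.

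The members were spread over the chromosomes far more evenly than peaks in general. Their density along the span of peaks lay between 0.477 per Mb on chromosome 20 and 0.801 per Mb on chromosome 21, whereas all peaks ranged from 36.1 per Mb on chromosome X to 126 on chromosome 22. Members were therefore a small share of the peaks on dense chromosomes, with 4.29 per 1000 peaks on chromosome 22, 4.78 on chromosome 20, 5.36 on chromosome 17 and 5.66 on chromosome 19. The share was highest on chromosome X with 16.3 per 1000, followed by chromosome 18 with 14.8, chromosome 4 with 13.7 and chromosome 21 with 13.5. Over the whole list it was 10.3 per 1000. Among peaks of fold 4 or more the share also differed, with 5.62 members in 100 on chromosome 19 and 20.7 in 100 on chromosome 18.

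**Figure D2:**
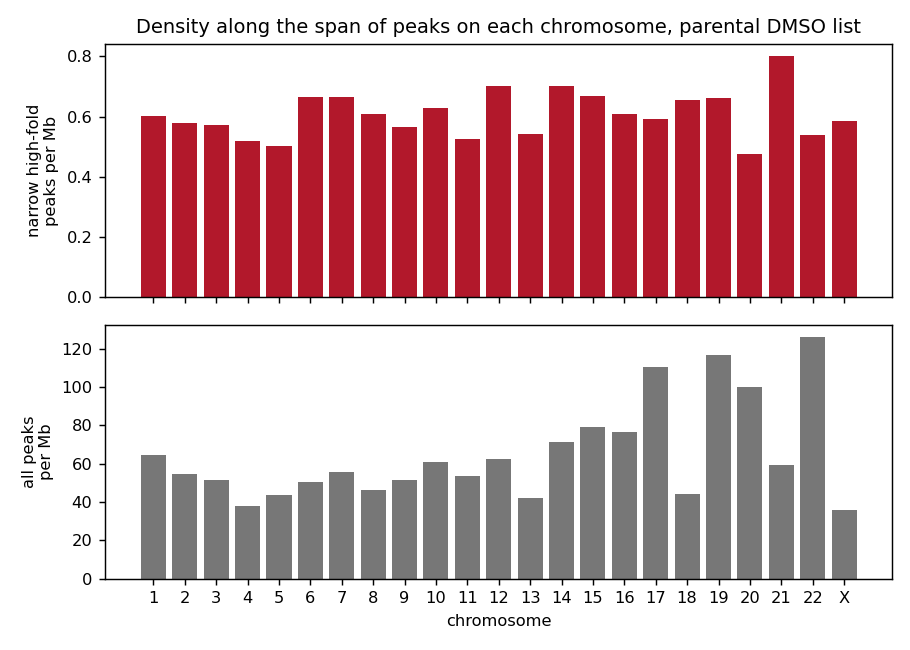
Members per Mb (upper bars) and all peaks per Mb (lower bars) of the parental DMSO list on each chromosome, over the span from its first to its last peak. The upper bars stay between 0.477 and 0.801, and the lower bars range from 36.1 to 126.

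Most members stood alone. The nearest other member was at a median distance of 414732 bp, and 1663 members had none within 10 kb. The remaining 103 (5.83%, Wilson 95% interval 4.83 to 7.02) formed 47 pairs and 3 runs of 3. By comparison, 3.35% of the narrow peaks of fold 3 to 4, 1.96% of the wider high-fold peaks and 1.93% of all peaks had a member within 10 kb. The 3 runs lay at chr2:165903860-165924989, at chr8:82052539-82067115 and at chrX:38466656-38474156. In the chromosome 2 run the middle site had a fold of 4.15 in parental DMSO, 4.53 and 2.49 in parental 2 h and 4 h, and 8.27, 6.63 and 4.12 in knockout DMSO, 2 h and 4 h. Knockout DMSO and 2 h were the highest of its 6 values. Closer than 1 kb were 4 pairs, named after their values were seen, at chr1:146126293-146126741, chr2:141591735-141592221, chr5:4531216-4531706 and chr12:46036985-46037450. The chromosome 12 pair was covered by 1 peak in the treated parental 4 h list and in knockout DMSO and 2 h, with a fold of 3.10, 3.35 and 2.82 for both members. No 2 peaks of the list were closer than 801 bp, so closer islands are not resolved in it.

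By the median, the members kept a greater distance from wide peaks than peaks in general did. There were 21186 peaks of 1500 bp or more in the list, and the median member was 56171 bp away from the nearest, edge to edge. The median was 25951 bp for the wider high-fold peaks, 26863 bp for all peaks and 80810 bp for narrow peaks of fold 3 to 4. Within 5 kb of a wide peak were 135 members (7.64%, 6.50 to 8.98), against 12.6% of all peaks, 4.51% of the wider high-fold peaks and 7.62% of narrow peaks of fold 3 to 4. More than 100 kb away were 712 members (40.3%), against 23.9% of the wider high-fold peaks and 25.7% of all. The order against the wider high-fold peaks thus depended on the distance: members were more often within 5 kb of a wide peak and also more often beyond 100 kb. Against narrow peaks of fold 3 to 4 the share within 5 kb was alike. The share near a wide peak depended on what counts as wide. With a limit of 1000 bp it was 16.4% for members, 16.3% for narrow peaks of fold 3 to 4, 9.59% for wider high-fold peaks and 24.0% for all peaks, and with 3000 bp 0.680%, 0.806%, 0.349% and 1.40%. With the wide peaks of knockout DMSO it was 17.3% for members and 17.8% for narrow peaks of fold 3 to 4. It was 37.2% for wider high-fold peaks and 32.7% for all peaks, so the order against the wider high-fold peaks was reversed. Peaks that overlapped such a wide peak counted as near it: 117 members, 412 narrow peaks of fold 3 to 4 and 3847 wider high-fold peaks. Within the parental DMSO list a wide peak did not count as near itself, and 3728 (32.5%) of the wider high-fold peaks were wide. A total of 460 members (26.0%) had no peak of any kind within 10 kb, against 34.1% of narrow peaks of fold 3 to 4. The share was 19.7% for the wider high-fold peaks and 19.0% for all peaks.

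**Figure D3:**
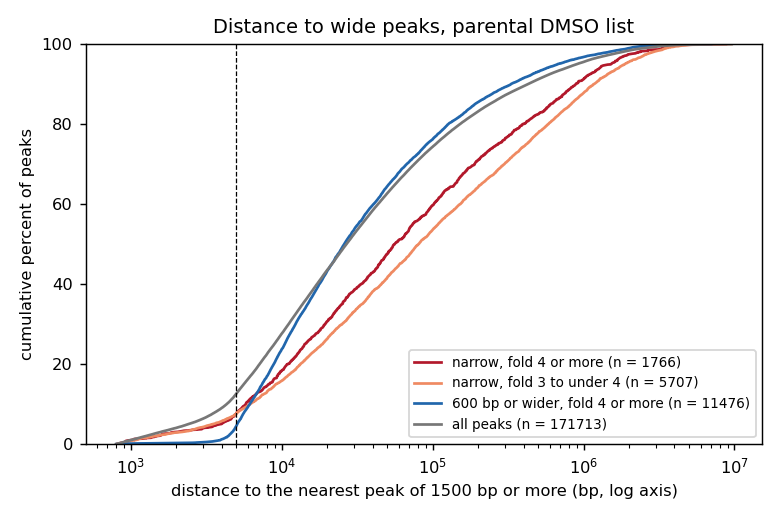
Cumulative percent of peaks against the distance in bp (log axis) to the nearest peak of 1500 bp or more, for the members (red), narrow peaks of fold 3 to under 4 (orange), wider high-fold peaks (blue) and all peaks (grey). Beyond 10 kb the red line runs below the blue and grey lines and above the orange one, with medians of 56171, 25951, 26863 and 80810 bp.

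The closest members lay at chr1:14764017-14764333, 822 bp from a wide peak, at chr17:29637807-29638356 (835 bp), chr6:135408543-135408926 (837 bp), chr16:75454862-75455201 (844 bp) and chr4:178287459-178288022 (854 bp). Such sites were not always separate in the other lists. The chromosome 1 site was 317 bp wide in parental DMSO and overlapped peaks of 3267 bp in parental 4 h and 3428 bp in knockout DMSO. Its fold was 4.62, 2.66 and 2.22 in the parental lists and 2.76, 4.66 and 2.08 in the knockout lists, so it was also low in knockout 4 h, where the peak was 240 bp wide. The chromosome 4 site kept 558 to 578 bp in both treated parental lists and knockout DMSO, with a fold of 6.88, 6.39 and 6.48. It was part of peaks of 3162 and 2890 bp in knockout 2 h and 4 h, with 3.76 and 2.01. The deposited fold is a mean over the whole peak, so values of sites that merged with a neighbour are not those of the island alone. The farthest members were at chrX:90533060-90533391 (8771658 bp), chrX:93391179-93391403 (5913646 bp), chrX:85302013-85302583 (5236234 bp) and chrX:84509412-84509727 (4443633 bp), and at chr21:21815397-21815617 (5291134 bp). Of these 5 sites, the one at chrX:85302013-85302583 had a fold above 4 in all lists. It stood at 7.49, 7.06 and 6.21 in parental DMSO, 2 h and 4 h, and at 7.32, 7.15 and 4.05 in the knockout lists in the same order.

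The local background solved from fold and p followed the distance. Within 2 kb of a wide peak its median was 5.17 times the background of the library, and 45 of 53 members were at or above 2 times. From 100 kb to 1 Mb away the median was 1.58 times, and 64 of 556 (11.5%) reached 2 times. Of all members, 504 (28.5%) reached 2 times. The share was 17.8% for narrow peaks of fold 3 to 4 and 91.7% for the wider high-fold peaks, so 2 times is not unusual among peaks of fold 4 or more. The solving step was checked on simulated folds of about 4 and above only, so the share for fold 3 to 4 is less sure. For all peaks the step put 159464 of 171713 at or above 2 times. Yet 29849 of the 171713 have the pair of fold and p that defines the background of the library. The share for all peaks is therefore too high and is not used. Fold and p are means over a peak, which places the solved value somewhat above the true one. The largest values were 33.1 times at chr12:782584-783109, 32.1 times at chr2:54797033-54797457, 25.8 times at chr5:79476742-79477332, 25.4 times at chr7:92269223-92269684 and 25.3 times at chr1:32395517-32396045. These sites lay 910 to 6051 bp from a wide peak. The chromosome 12 site had a fold of 4.75, 5.05 and 4.89 in the parental lists and 4.32, 4.45 and 5.55 in the knockout lists, and its rank by p was between 981 and 2377 in all 6. Its fold of 5.55 in knockout 4 h was the highest of the 6, unlike that of most members in that library.

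Nearly all members were also found as peaks elsewhere. Of the 1766, 1517 (85.9%, 84.2 to 87.4) overlapped a peak by at least 1 bp in all 5 other lists, and 1595 (90.3%) did so in the 4 lists without knockout 4 h. The share was 99.7% for the wider high-fold peaks, 56.2% for narrow peaks of fold 3 to 4 and 31.3% for all peaks. Single lists overlapped 94.9% and 95.5% of members in parental 2 h and 4 h, and 98.4%, 97.1% and 93.1% in knockout DMSO, 2 h and 4 h. These shares move with the length of the lists: knockout DMSO held 267480 peaks on these chromosomes and the parental lists 171713 to 178140. Taking only the 30000 strongest peaks of each list, 31.3% of members were found in all 5, with 71.3% and 72.1% in parental 2 h and 4 h, 72.8% and 72.0% in knockout DMSO and 2 h, and 50.6% in knockout 4 h. By fold, the share found in all 5 full lists went from 81.0% of the members with a fold of 4 to 5 up to 44 of 44 with 10 or more. By width, it was 58.6% from 200 to 299 bp and 97.2% from 500 to 599 bp.

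No peak in any other list overlapped 3 of the 1766 members, against 114 of 5707 narrow peaks of fold 3 to 4, 0 of 11476 wider high-fold peaks and 20499 of all 171713 peaks. They lay at chr1:223162007-223162338, chr6:5174084-5174382 and chr3:35248712-35248934, with a fold of 4.88, 4.68 and 4.47 and ranks of 14557, 15010 and 16314 in parental DMSO. Another 8 members were found in 1 other list, against 255 narrow peaks of fold 3 to 4 and 25413 of all peaks. Among them, the site at chr8:126747109-126747327 was found in parental 2 h with a fold of 3.05, and the site at chr1:157623409-157623650 in knockout 2 h with 1.88. All 5 sites were 219 to 332 bp wide and had a fold below 5 in parental DMSO.

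Fold was lower in the other lists. Its median over overlapping peaks was 3.85 and 3.71 in parental 2 h and 4 h, 3.95 and 3.99 in knockout DMSO and 2 h, and 2.80 in knockout 4 h. A fold of 4 or more was kept by 43.3% and 40.7% of members in the treated parental lists, by 47.8% and 48.2% in knockout DMSO and 2 h, and by 18.8% in knockout 4 h. A lower median is built into the choice of sites by a high value in 1 list, and the reverse choice shows the same. The same limits applied to knockout DMSO took 1941 peaks with a median fold of 4.65, and their median in parental DMSO was 3.76. Of those peaks, 617 (31.8%) overlapped a member, which is 34.9% of the members. For parental 2 h the limits took 2749 peaks, of which 645 (23.5%) overlapped a member, and for knockout 4 h 2345 peaks, of which 286 (12.2%) did. The wider high-fold peaks had a median of 5.30 in parental DMSO and 5.44, 5.40, 5.35, 5.42 and 4.37 in the other lists, so the knockout 4 h list was lowest for them too.

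**Figure D4:**
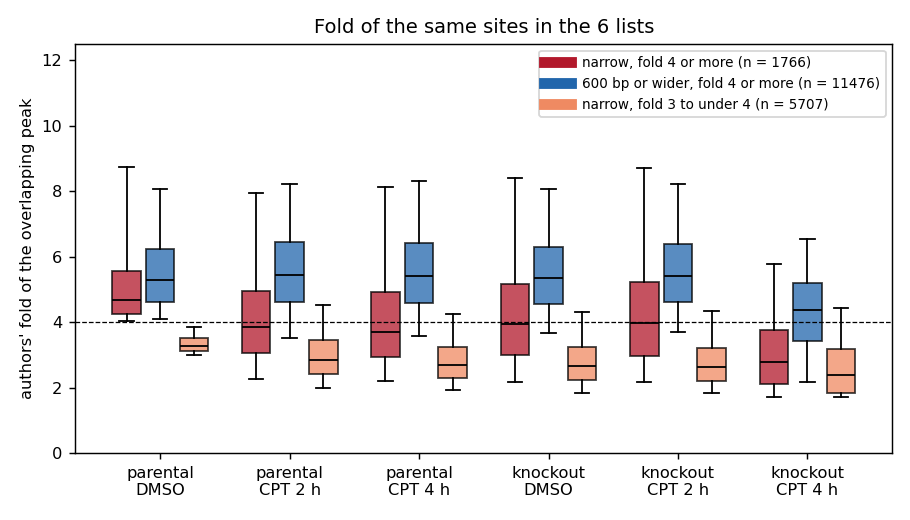
Authors' fold of the overlapping peak in the 6 lists for the members (red), wider high-fold peaks (blue) and narrow peaks of fold 3 to under 4 (orange); boxes give quartiles and median, whiskers the 5th and 95th percentiles, and the dashed line fold 4. The red medians are 4.69 in parental DMSO, 3.71 to 3.99 in the next 4 lists and 2.80 in knockout 4 h, while the blue medians stay at 5.30 to 5.44 outside knockout 4 h.

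In each list most of the islands stayed short, as did most narrow peaks of fold 3 to 4. The median width of the overlapping peak was 432 and 441 bp in parental 2 h and 4 h, 485 and 470 bp in knockout DMSO and 2 h, and 480.5 bp in knockout 4 h. Of the members overlapped, 77.9% and 76.9% were under 600 bp in the treated parental lists, 68.3% and 70.5% in knockout DMSO and 2 h, and 66.3% in knockout 4 h. For narrow peaks of fold 3 to 4 the shares in the same order were 79.6%, 77.6%, 69.1%, 72.7% and 69.5%. For all peaks they were 43.0%, 41.4%, 37.5%, 39.3% and 49.3%. Of the 1517 members found in all 6 lists, 586 (38.6%, 36.2 to 41.1) were under 600 bp in each, against 41.9% of narrow peaks of fold 3 to 4. Between 66 and 130 members per list overlapped a peak of 1500 bp or more. Both limits of width and fold were met in all 6 lists by 71 members, or 4.02%.

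By −log10 p, where rank 1 is the strongest peak of a list, the median member of parental DMSO ranked 14710 of 171713, within the first 8.57%, and the best ranked 8. Over overlapping peaks, the median rank was 18567 in parental 2 h, 18634 in parental 4 h, 18329 in knockout DMSO and 18537 in knockout 2 h, in lists of 177354, 178140, 267480 and 218105 peaks. In knockout 4 h it was 26386 of 402427. The quartiles in knockout DMSO were 12510 and 30831, and in knockout 4 h 12552 and 77278. Over the fixed set of 1517 members found in all lists, the rank of a member differed by a median of 462 places between its highest and lowest value in the 4 other lists without knockout 4 h. Rank correlations over these members, given as a description since sites are not replicates, were 0.80 between knockout DMSO and 2 h, 0.69 between parental 2 h and 4 h, 0.66 between parental 4 h and knockout DMSO and 0.29 between knockout DMSO and knockout 4 h. A group of 29 members was among the first 100 of the fixed set in all 6 lists.

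The widest range over the fixed set, 1263 places, was at chr8:102979742-102980232. Its fold was 4.54, 3.37 and 2.20 in parental DMSO, 2 h and 4 h, and 7.73, 7.49 and 2.42 in knockout DMSO, 2 h and 4 h. The next was at chr1:566399-566702, with 1256 places. There the fold was 7.86, 5.98 and 4.20 in the parental lists and 6.33, 2.34 and 2.36 in the knockout lists, and the parental DMSO value is one that chose the site. The site at chr4:145955561-145956142 had 5.23, 2.50 and 6.79 in the parental lists and 7.88, 7.48 and 2.68 in the knockout lists. Parental 2 h and knockout 4 h stood low at this site. The site at chr1:144361454-144362041 had 4.93, 2.19 and 2.67 against 6.88, 5.54 and 2.32. At that site and at the chromosome 8 site, knockout DMSO and 2 h were above every parental list.

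The 15 members of largest fold were all found in the 6 lists with a fold above 4 in each. The first, at chr22:40271193-40271628, had a fold of 15.02, 12.8 and 15.09 in parental DMSO, 2 h and 4 h, and of 13.5, 14.7 and 7.82 in knockout DMSO, 2 h and 4 h. Its width stayed between 434 and 471 bp. The second, at chr3:73159758-73160278, had 14.1, 14.1 and 14.9 in parental and 14.3, 14.9 and 9.43 in knockout cells. It ranked 8, 24, 5, 8, 7 and 52 by p in the same order of lists and was thus one of the strongest peaks of any width. The site at chr17:45144399-45144986 was, beside it, the one member among the 100 strongest peaks of every list, with ranks of 14, 18, 41, 6, 28 and 53. Its fold was 12.7, 13.8 and 13.0 in parental and 13.1, 11.9 and 11.1 in knockout cells, with little loss at knockout 4 h.

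Further sites held a similar fold in 5 lists and a lower one in knockout 4 h. At chr11:118122686-118123185 the 5 values were 12.3 to 13.3 and knockout 4 h had 6.70. At chr12:104424390-104424813 they were 12.2 to 13.8, with 7.68 in knockout 4 h. At chr21:44985082-44985616 they were 12.6 to 13.0, with 10.0. These 3 sites were 400 to 535 bp wide over all 6 lists. At chr10:47395784-47396328 the values were 12.2, 12.7 and 12.4 for the parental line, against 10.4, 11.2 and 9.03 for the knockout.

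The order of sites by fold in parental DMSO favours a high value there. At 4 other sites, and at those on chromosomes 14 and 19 named below, parental DMSO had the highest value. At chr7:142143818-142144261 it had 13.5, and the next 4 lists had 9.08 to 10.3, with 5.80 in knockout 4 h. The peak there was 444 bp wide in parental DMSO and 798 to 809 bp wide in all other lists. At chr2:32817556-32818110 it had 12.3 against 8.08 to 10.3, with 7.11 in knockout 4 h, and at chr10:6707380-6707953 it had 12.0 against 6.97 to 9.74. At chr16:31973272-31973630 it had 13.1 against 9.43 to 11.5 in the next 4 lists and 7.47 in knockout 4 h, at a width of 341 to 359 bp throughout. Of the 15, the site at chr14:106621973-106622319 had the widest range of rank in the 4 lists other than parental DMSO and knockout 4 h, with a fold of 13.0, 10.7 and 5.47 in parental and 8.21, 11.4 and 9.67 in knockout cells. Its peak was 347 bp wide in parental DMSO and 1763 bp at 4 h, where the fold was lowest. The last 3 of the 15, at chr1:78277281-78277702, chr2:171608093-171608451 and chr19:42011944-42012302, had 12.6, 12.6 and 12.4 in parental DMSO, and their lowest values were in knockout 4 h, with 5.18, 5.41 and 4.70. On chromosome 1 knockout 2 h was highest with 13.4, and on chromosome 2 parental 4 h with 13.2.

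**Figure D5:**
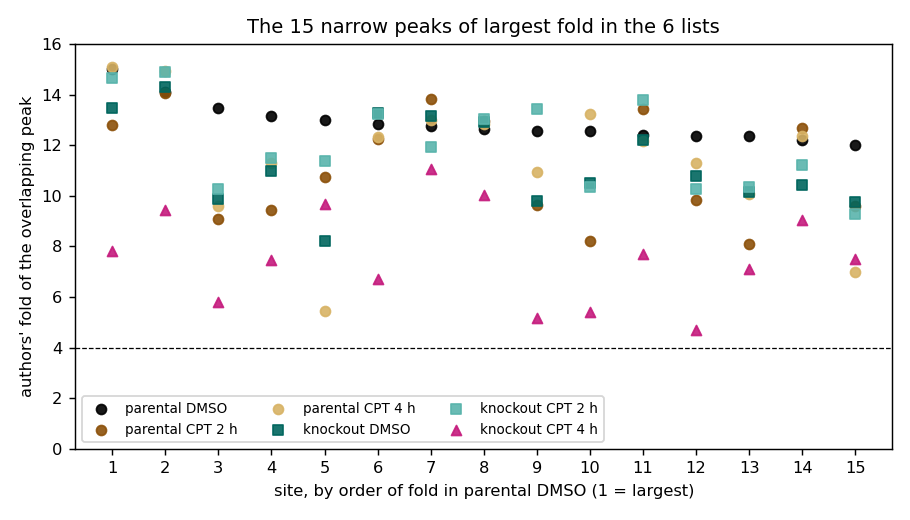
Authors' fold in the 6 lists (circles parental, squares and triangles knockout) for the 15 members of largest fold, in that order. All points are above 4 (dashed), and the knockout 4 h point is the lowest at all sites except 5 and 15, where it is parental 4 h.

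The lists that did not choose the members were compared with each other, counting members whose folds differed by at least 1.5 times. These 5 comparisons share libraries, so their counts are not independent of each other. At parental 4 h over parental 2 h, 114 of 1623 members (7.02%) were higher and 135 (8.32%) lower. Over all 69904 peaks found in both lists these shares were 1.89% and 4.04%, among the wider high-fold peaks 0.698% and 0.741%, and among narrow peaks of fold 3 to 4 5.28% and 10.6%. The median ratio over the members was 0.987. In either direction together, 15.3% of members and 15.9% of these weaker narrow peaks passed 1.5 times, and the weaker peaks were lower more often and higher less often in these 2 lists. The highest ratio was at chr4:145955561-145956142 (2.71 times), followed by chr11:6767502-6767921, with a fold of 2.56 at 2 h and 6.001 at 4 h, and chr10:124919692-124920215, with 1.99 and 4.67. The lowest ratios were at chr7:103814327-103814612 (6.84 and 2.61), chr6:90081831-90082177 (5.24 and 2.14) and chr1:115010634-115011003 (5.49 and 2.28). On chromosome 1 the peak was 314 bp wide at 2 h and 2676 bp at 4 h.

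At knockout 2 h over knockout DMSO, 115 of 1697 members (6.78%) were higher and 104 (6.13%) lower. The shares were 2.56% and 3.07% of all 85504 peaks and 6.14% and 7.64% of narrow peaks of fold 3 to 4. Among wider high-fold peaks they were 0.723% and 0.488%. The median ratio over the members was 1.00. The highest ratio was at chr18:67590875-67591292, with 2.95 and 8.14, where the peak was 2788 bp wide in knockout DMSO and 370 bp at 2 h. In parental cells the site had 6.82, 4.32 and 8.95 with DMSO, at 2 h and at 4 h. The next were at chr19:93093-93418 (2.16 and 4.88) and chr13:43222660-43223124 (2.20 and 4.96). The lowest ratios were at chr1:566399-566702 (6.33 and 2.34), chr13:105484566-105484905 (5.34 and 2.14) and chrX:106894861-106895367 (6.34 and 2.55).

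At knockout 4 h over knockout DMSO, which shares its control with the last comparison, 67 of 1626 members (4.12%) were higher and 738 (45.4%) lower. Over all 85373 peaks the shares were 2.53% and 14.0%, and over narrow peaks of fold 3 to 4 they were 8.35% and 17.9%. Over wider high-fold peaks they were 0.201% and 26.1%. No overlapping peak in knockout 4 h had a fold below 1.49, and sites without a peak there were not counted. In knockout DMSO the median fold was 4.03 for members, 5.35 for wider high-fold peaks and 2.42 for all peaks. Weak peaks thus had less room to be counted as lower, which limits the comparison with all peaks. Knockout 4 h had a background of 0.168 against 0.699 in its control, its median ratio was below 1 in every set of peaks compared, and an effect of camptothecin cannot be told apart from that of depth. With ratios divided by their median over all peaks, 0.876, 123 members (7.56%) were higher and 542 (33.3%) lower. Centred in this way, the shares were 5.86% and 6.64% for all peaks and 0.690% and 14.8% for wider high-fold peaks. For narrow peaks of fold 3 to 4 they were 15.4% and 9.74%. The lowest ratios were at chr13:75900208-75900787, with 11.8 and 2.05, chr6:119030437-119030755 (7.73 and 1.54) and chr1:200123525-200124030 (8.51 and 1.71). The chromosome 13 site had 9.71 to 11.8 in all 5 other lists. The highest ratios were at chr12:10458501-10458727 (2.41 and 6.37), chr2:27043347-27043688 (2.80 and 6.76) and chr7:79165330-79165647 (2.67 and 6.08).

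Between genotypes at 2 h, 190 of 1647 members (11.5%) had a higher fold in the knockout and 151 (9.17%) a lower one. The shares were 2.94% and 5.43% of all 74132 peaks and 6.14% and 12.3% of narrow peaks of fold 3 to 4. Wider high-fold peaks were more often higher in the knockout, as members were, with 1.95% higher and 0.959% lower. The median ratio was 1.03 for members, 0.991 for wider high-fold peaks and 0.963 for all peaks. With centred ratios 235 members (14.3%) were higher and 122 (7.41%) lower. The centred shares were 3.93% and 4.15% for all peaks and 2.65% and 0.671% for wider high-fold peaks. For narrow peaks of fold 3 to 4 they were 7.67% and 10.1%. The highest ratios were at chr6:130898678-130899266, chr8:93618215-93618560 and chr4:145955561-145956142, with 8.70, 8.73 and 7.48 in knockout 2 h against 2.71, 2.86 and 2.50 in parental 2 h. The lowest ratios were at chrX:84509412-84509727 (1.75 against 5.23), chr16:14580754-14581095 (2.79 against 7.56) and chr10:82760176-82760609 (2.43 against 6.30). At 4 h, 91 of 1586 (5.74%) were higher in the knockout and 660 (41.6%) lower, against 2.56% and 14.2% of all 73993 peaks and 8.40% and 16.8% of narrow peaks of fold 3 to 4, and with centred ratios 149 (9.39%) and 444 members were higher and lower. This comparison rests on the knockout 4 h library as well, and weak peaks again had less room to be counted as lower. The site at chr13:75900208-75900787 was again the lowest, followed by chr6:130088396-130088874 (1.71 against 8.24) and chr3:161147074-161147452 (1.71 against 8.16). Highest were chr2:57672610-57672965 (5.01 against 2.02), chr7:103814327-103814612 (6.24 against 2.61) and chr5:9411841-9412117 (5.46 against 2.31).

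In a stricter count, chosen after the data were seen, both knockout DMSO and 2 h had to differ by 1.5 times from both treated parental lists. Of 1595 members found in these 4 lists, 36 (2.26%) were higher in the knockout and 10 (0.627%) higher in parental cells. Over all 58568 peaks found in the 4 lists the shares were 0.396% and 0.248%. Among wider high-fold peaks they were 35 (0.305%) and 18 (0.157%) of 11467, with the same lean as the members. Among narrow peaks of fold 3 to 4 they were 25 (0.722%) and 16 (0.462%) of 3465. Narrow peaks of fold 2 to under 4 leaned the other way, with 48 (0.354%) and 76 (0.560%) of 13560. Both knockout libraries also had a higher background (0.699 and 0.715) than both treated parental ones (0.506 and 0.570), and the part of this in the counts was not tested. In the 36 sites the median fold was 2.86 and 2.82 in parental 2 h and 4 h, 5.55 and 5.54 in knockout DMSO and 2 h, and 2.19 in knockout 4 h. Parental DMSO had 4.88, which the choice of sites held above 4. They lay on 15 chromosomes. The widest gap was at chr6:130898678-130899266, with 4.89, 2.71 and 2.64 in the parental lists and 9.31, 8.70 and 2.39 in the knockout lists. At chr3:106595361-106595766 the values were 4.39, 2.25 and 1.91 against 5.42, 4.46 and 1.79, and at chr1:143765128-143765649 they were 7.75, 3.75 and 3.57 against 8.57, 7.05 and 5.19. In the 10 sites of the opposite kind the median was 4.65 and 4.20 in treated parental cells and 2.47 and 2.43 in knockout DMSO and 2 h. The widest gap there was at chr4:26171246-26171611, with 4.97, 5.71 and 5.90 against 3.28, 3.09 and 3.86. At chrX:62780669-62780947 the values were 4.60, 4.87 and 4.09 against 2.34, 2.47 and 2.40.

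Presence alone separated few members by genotype. Absent from both treated parental lists and present in knockout DMSO and 2 h were 13 members (0.736%), against 5.37% of all peaks and 1 of 11476 wider high-fold peaks. These knockout lists were longer, with 267480 and 218105 peaks against 177354 and 178140 in the treated parental lists. The part of list length in these counts was not tested. The opposite pattern had 2 members (0.113%), against 1.43% of all peaks and 0 of the wider high-fold peaks. Both members lay side by side on chromosome 21, from 9963648 to 9963922 and from 9965651 to 9966033. Their fold was 5.18, 2.82 and 2.70, and 4.03, 2.14 and 2.05, in parental DMSO, 2 h and 4 h, and no peak overlapped them in any knockout list. Both were named after their values were seen. They lay 542449 and 544452 bp from the longest stretch of the chromosome without a peak and as far from its first peak, and so carry the signs of position counted further on.

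Signs that go with mapping artifacts were counted, without calling a cause. A fold of 4 or more in all 6 lists was kept by 166 members (9.40%, 8.13 to 10.9). The share was 58.3% for the wider high-fold peaks and 3.99% for all peaks. In parental DMSO the choice of members and of wider high-fold peaks already sets this fold. The sign was thus commoner among the wider high-fold peaks than among the members. A further sign, a fold of 8 or more in all 6 lists, was added after the data were seen. It was met by 29 wider high-fold peaks (0.253%) and 34 of all peaks (0.0198%). Members that met it were 5 (0.283%). They are the sites named above at chr3:73159758-73160278, chr17:45144399-45144986, chr21:44985082-44985616 and chr10:47395784-47396328, and one at chr3:162408242-162408705 with 10.1, 9.59 and 11.3 in parental and 11.2, 12.3 and 9.07 in knockout cells. The last, named after its values were seen, lay 1618570 bp from the nearest wide peak and was 396 to 464 bp wide in all lists. By this sign these 5 sites are flagged as candidates for mapping artifacts, which was not tested. The share of members was close to that of the wider high-fold peaks, so the sign does not set the members apart from them.

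Position gave a second sign. The longest stretch without any peak of the 6 lists on each chromosome was taken; as background, such stretches usually hold gaps of the assembly or repeats to which reads cannot be placed. Within 1 Mb of it were 31 members (1.76%, 1.24 to 2.48) on 15 chromosomes, against 0.950% of the wider high-fold peaks, 1.44% of narrow peaks of fold 3 to 4 and 1.28% of all peaks. Among these 31, a fold of 4 in all lists was kept by 9.68%, and among the other members by 9.39%. The 3 sites that kept it, named after their values were seen, were at chr19:24226946-24227277, chr8:46969197-46969548 and chr9:65645583-65645914. Their fold was 4.21 to 6.40, 4.67 to 6.20 and 4.03 to 5.56 over the 6 lists. The pair on chromosome 21 found in parental lists alone is among the 31. Within 1 Mb of the first or last peak of a chromosome were 41 members (2.32%), against 3.15% of all peaks. Of those 41, the sites at chr1:566399-566702 and at chr1:564336-564577 are flagged as well, named after their values were seen. As background, the start of this chromosome in hg19 is known to hold a copy of mitochondrial DNA, where reads from mitochondria can be placed. Overlap with it was not tested. The second of the sites had 4.92, 4.17 and 2.42 in parental and 3.06, 2.42 and 1.71 in knockout cells.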

How the data were processed

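H3K27ac was measured by ChIP-seq in 6 libraries, 1 per group, and groups were taken from the labels. Per the submitters' processing notes, MACS2 2.1.2 and BWA 0.7.17 were used, with the build hg19. The notes also name the trimmers Trimmomatic 0.39 and Trim Galore 0.6.2, and Picard 2.9.2 with SAMtools 1.8. Their settings, and what served as control for the peak calls, were not given. Each library has its own deposited list of broad peaks. The deposited fold is a ratio of pileup over local background, and the deposited −log10 p and −log10 q are values of the same caller, all as means over a peak.

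Members and comparison sets were taken from the parental DMSO list with Python 3.11.15, pandas 2.3.3, numpy 2.4.6 and SciPy 1.17.1. Each member took the values of the peak of each other list that overlapped it by at least 1 bp; no member overlapped more than 1. Distances run from edge to edge. Background was solved from the most frequent pair of fold and −log10 p of a list by the Poisson tail of the caller, and for single peaks in the same way. Depth in reads was not analysed. Wilson intervals (95%) cover counting error over sites only.

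Named sites are the 15 of largest fold, those nearest each limit, the 5 found in fewest lists, the 3 longest runs, the 5 nearest to and farthest from wide peaks, the 5 of widest rank range, the 5 of largest background and the 3 highest and 3 lowest ratios of each comparison; others are said to be named later. The members, rules and lists were chosen with earlier results of these data known. Steps were tested on simulated data: of 1766 simulated members, 200 of 200 emptied sites were found empty and 200 of 200 doubled folds passed 1.5 times, with 0 others, which checks the code only. The planned work on sequence and genes was not run, since the tables at hand are on another build. Alternatives changed the limits, overlap, width of a wide peak, distance and ratio.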

Additional observations from a re-analysis of the deposited data

Results flagged for a closer look

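In the parental DMSO list, 3130 peaks lay on sequences other than chromosomes 1 to 22 and X and were left out of all comparisons. Of these, 66 (2.11%) were under 600 bp wide with a fold of 4 or more, against 1.03% of the peaks on the chromosomes used. They are listed because they lie in data outside the main measurement. Their number is above the limit of 3 that a count of 0 allows, which is a low bar, since nothing sets 0 as the number to be found there. Their median fold was 5.13 and their largest 9.33. Alternate haplotypes held 33 of them among 1836 peaks, and unplaced or unlocalised contigs 10 among 694 (1.44%). The other 23 were among the 600 peaks on the remaining sequences. Haplotypes repeat parts of the chromosomes, so reads there can be placed at more than 1 locus, and the part of this in the count was not tested.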

How the results depend on the processing

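Of 83 values under other settings, 35 stayed within the counting interval of the reported value (within 1.5 times for the number of members) and 48 moved beyond it. A width limit of 500 bp gave 82.6% of members in all 5 other lists, 3.87% within 10 kb of another, 45.9% narrow in all lists, and 14.7%, 46.6% and 43.7% past 1.5 times for knockout 2 h over DMSO, knockout 4 h over DMSO and knockout 4 h over parental 4 h. A limit of 800 bp gave 2834 members, 90.8%, 7.66% and 23.9% for the first 3 shares, and 11.2%, 9.7% and 16.4% past 1.5 times for parental 4 h over 2 h, knockout 2 h over DMSO and knockout over parental 2 h. A fold limit of 3 gave 7473 members, 63.2% in all lists, 10.3% within 10 kb of another, and 32.6% and 31.5% past 1.5 times for knockout 4 h over its DMSO library and over parental 4 h. A limit of 5 gave 683 members, 93.7%, 3.22% and 33.6% for the first 3 shares, and 10.2%, 61.4%, 18% and 59.8% past 1.5 times for knockout 2 h and 4 h over DMSO and for knockout over parental cells at 2 h and 4 h. A −log10 q of at least 5 gave 731 members, 93.4% in all lists, 12% within 5 kb of a wide peak, 35.1% narrow in all lists, and 9.25%, 60.4%, 16.9% and 59.7% in the same 4 comparisons. The share in all other lists was 78.6% where the overlap had to cover 50% of the member, 90.3% without knockout 4 h and 31.3% with the 30000 strongest peaks of each list. The share near a wide peak was 16.4% and 0.68% with wide peaks of 1000 and 3000 bp, and 17.3% with the wide peaks of knockout DMSO. Within 100 kb of another member were 22.7%. A ratio of 2 was passed by 1.97% for parental 4 h over 2 h, by 1.77% and 22.9% for knockout 2 h and 4 h over DMSO, and by 3.89% and 19.2% for knockout over parental cells at 2 h and 4 h. With centred ratios 40.9% and 37.4% passed 1.5 times for knockout 4 h over its DMSO library and over parental 4 h. The cause of these shifts was not tested beyond what a changed limit itself sets. Leaving out the 36 members near the longest peak-free stretch of their chromosome or with a fold of 8 or more in all lists, a setting chosen after seeing the data, moved none of the 10 values beyond its interval. With so few of the 1766 members left out, the values could hardly leave their intervals, and no conclusion is drawn from this. No paired analysis was possible because each group has 1 library. Depth limits what single sites can show: the counting interval given for 7 fragments is that of a single count. A ratio between lists has a wider one, so the ratios of named sites are a description.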

Other observations

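The width of the members was uneven. From 320 to 359 bp there were 194 and 168 members per 20 bp, and from 380 bp upward between 70 and 109. The median fold was 4.42 at 320 to 339 bp and 5.51 at 500 to 519 bp. By width class the median went from 4.37 at 200 to 299 bp to 5.35 at 500 to 599 bp.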
